A study of Saccharomyces cerevisiae with 12 samples.

Results

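The noncoding RNA genes of budding yeast were followed in Spt4-AA and wild type cells upon osmostress and without stress. They were taken as the gene identifiers of the deposited count table that begin with neither Y, Q0 nor a lower-case t, with *SRG1* left out, which gave 113 genes of 7126. By lists of gene names, they comprised 47 box C/D small nucleolar RNAs (snoRNAs), 29 box H/ACA snoRNAs, 6 spliceosomal snRNAs, 5 RNAs of other RNA-protein machines, 10 long noncoding RNAs and 16 rDNA genes. snR genes on no other list were taken as box C/D, and the mitochondrial 15S and 21S rRNA genes were placed with the rDNA. RNA-seq libraries were made from 3 biological replicates in each of 4 groups, which were Spt4-AA upon osmostress, Spt4-AA without stress, wild type upon osmostress and wild type without stress. Both strains were *Saccharomyces cerevisiae* BY4741 of mating type MATa, with the alleles ura3-delta 0, met15-delta 0, leu2-delta 0 and his3-delta 1, and both carried Spt4 with a TAP tag at its own locus, marked by kanMX4. In Spt4-AA, threonine and serine of the Spt4 elongation factor were replaced by alanine (T42A and S43A) at the sites that the stress kinase Hog1 phosphorylates. Cells were in log phase on YPD at 30 ºC, and osmostress was 15 min in 0.4 M NaCl. The mutant strain was made by transformation with a mutated cassette, and the number of clones sequenced was not given in the sources used here. Counts per gene cannot show the substitutions. *SPT4* itself had 16.4 ± 3.3 counts per 1e6 counts of a library (CPM) in Spt4-AA and 19.7 ± 1.45 CPM in the wild type upon osmostress, and 9.8 ± 1.93 CPM in Spt4-AA and 14.9 ± 2.3 CPM in the wild type without stress (SD, n = 3 each). Neither strain difference of *SPT4* passed edgeR's test (adjusted p = 0.23 upon osmostress and 0.259 without stress).

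Most snoRNAs guide enzymes to rRNA. Box C/D snoRNAs carry a C box near the 5′ end and a D box near the 3′ end and direct methylation of the ribose, while box H/ACA snoRNAs end in an ACA box and direct the change of uridine to pseudouridine. A few, such as U3, U14 and snR30, are needed to cut the rRNA precursor. In yeast most snoRNAs have their own RNA polymerase II promoter, some are cut from shared precursors of several snoRNAs, and some are released from introns of mRNAs, many of them for ribosomal proteins. Mature snoRNAs have no poly(A) tail, and short tails are added during trimming and decay of their precursors.

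The libraries were made by poly(A) selection, so that RNAs without a tail are read only in part, and how far the reads came from mature RNAs or from tailed precursors was not tested. The noncoding RNA genes held between 0.0277 and 0.0505% of the 12903162 to 21909524 counts of a library, and 79 to 95 of them were detected per library. No counts fell on 10 of the 113 genes, and 21 had at most 3 counts in every library. Enough counts for a test by edgeR (its filterByExpr rule) were found for 64 of them, among 6040 genes in all: 22 C/D snoRNAs, 24 H/ACA snoRNAs, 2 snRNAs, 4 RNAs of other machines, 5 long noncoding RNAs and 7 rDNA genes. A gene that passed the filter only through the group in which it is high had to differ, so the counts of calls over these 64 describe them and not the others. Levels are relative to the total of each library, so less RNA per cell and fewer cells with the RNA cannot be told apart. Replicates 1 and 2 of Spt4-AA upon osmostress carry library numbers apart from those of the other 10 libraries. Whether that marks a batch is not stated in the labels. Single libraries are named by strain, condition and replicate, as in WT-NaCl 2 or AA-YPD 1, where YPD stands for no stress.

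The snoRNAs on which the results turn most are shown here so that their boxes can be seen. Sequences are from RefSeq assembly R64, 5′ to 3′, with capitals for the C box (letters NTGATGA, searched on the transcribed strand in the first 20 bases), the D box (CTGA, in the last 20 bases) or the ACA box (the last ACA in the last 20 bases). The 4 C/D snoRNAs are snR54 (chrXIII:163535-163620, minus strand, in the intron of *IMD4*), snR24 (chrXIII:499984-500072, minus strand, in the intron of *ASC1*), snR57 (chrXII:794937-795024, minus strand) and snR67 (chrV:61352-61433, plus strand), which had the widest differences of their class.
snR54: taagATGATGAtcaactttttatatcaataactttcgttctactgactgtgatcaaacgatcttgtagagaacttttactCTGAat
snR24: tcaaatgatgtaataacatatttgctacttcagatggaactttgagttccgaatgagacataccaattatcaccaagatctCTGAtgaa
snR57: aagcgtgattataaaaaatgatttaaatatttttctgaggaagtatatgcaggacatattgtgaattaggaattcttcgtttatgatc
snR67: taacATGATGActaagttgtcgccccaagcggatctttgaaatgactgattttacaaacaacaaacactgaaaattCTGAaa
The 4 H/ACA snoRNAs are snR49 (chrXIV:716120-716284, plus strand), snR46 (chrVII:545370-545566, plus strand) and snR189 (chrIII:178610-178798, minus strand), whose responses differed by over 4-fold between the strains, and snR33 (chrIII:142364-142546, minus strand), the most abundant per length.
snR49: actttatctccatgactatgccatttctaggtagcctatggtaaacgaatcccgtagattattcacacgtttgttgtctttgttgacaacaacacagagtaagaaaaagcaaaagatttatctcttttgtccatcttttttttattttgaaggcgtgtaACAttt
snR46: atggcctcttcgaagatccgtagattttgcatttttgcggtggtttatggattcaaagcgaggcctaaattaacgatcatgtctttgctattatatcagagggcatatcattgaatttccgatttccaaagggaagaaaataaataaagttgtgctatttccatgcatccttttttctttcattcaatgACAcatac
snR189: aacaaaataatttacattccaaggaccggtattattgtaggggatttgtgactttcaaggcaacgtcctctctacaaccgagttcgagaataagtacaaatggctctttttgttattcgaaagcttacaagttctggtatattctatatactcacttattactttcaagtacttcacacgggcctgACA
snR33: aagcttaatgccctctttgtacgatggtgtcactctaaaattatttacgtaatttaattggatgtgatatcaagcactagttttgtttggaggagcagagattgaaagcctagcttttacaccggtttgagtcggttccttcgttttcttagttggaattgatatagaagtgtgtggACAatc
These letters were found in most of the class they define. NTGATGA lay in the first 20 bases of 36 of 47 C/D snoRNAs (76.6%), 1 of 29 H/ACA snoRNAs (3.45%) and 1.48% of the 6477 annotated genes. CTGA lay in the last 20 bases of 45 C/D snoRNAs (95.7%), 2 H/ACA snoRNAs (6.9%) and 9.96% of all genes, and ACA in those of 15 C/D snoRNAs (31.9%), 20 H/ACA snoRNAs (69%) and 24.7% of all genes. NTGATGA was not found in that window of snR24 or snR57, and CTGA not in that of snR57, although RefSeq annotates both as C/D snoRNAs.

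H/ACA snoRNAs were read more than C/D snoRNAs, with a median over genes of 9.35 against 4.07 CPM per kb of gene length. The highest mean level per length over the 12 libraries was 93.2 CPM per kb for snR33, followed by 66.3 for snR31 and 66 for the telomerase RNA *TLC1*. The lowest classes by median were the rDNA genes, at 0.102 CPM per kb, and the spliceosomal snRNAs, at 1.2 CPM per kb. Only 8 of the 16 rDNA genes had any counts, and those of 5S rRNA had 45.1 to 57 CPM per kb, among the highest levels per length.

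Summed snoRNA levels in these poly(A)-selected libraries were lower upon osmostress than without it in the wild type. They were higher in stressed Spt4-AA than in the stressed wild type. Summed over the 76 snoRNAs, the level was 216, 238 and 197 CPM in replicates 1, 2 and 3 of Spt4-AA upon osmostress and 215, 289 and 252 CPM without stress. In the wild type it was 148, 138 and 98.9 CPM upon osmostress and 228, 258 and 292 CPM without stress. The 3 stressed wild type libraries lay below all 9 others, and the stressed and unstressed Spt4-AA libraries overlapped. The means were 217 ± 20.6 and 252 ± 36.8 CPM in Spt4-AA and 128 ± 25.8 and 259 ± 32 CPM in the wild type (SD, n = 3, upon osmostress and without stress). C/D snoRNAs summed to 61.1 ± 5.36 CPM in Spt4-AA and 35.3 ± 8.76 CPM in the wild type upon osmostress, and H/ACA snoRNAs to 155 ± 16 and 92.8 ± 17 CPM.

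**Figure D1:**
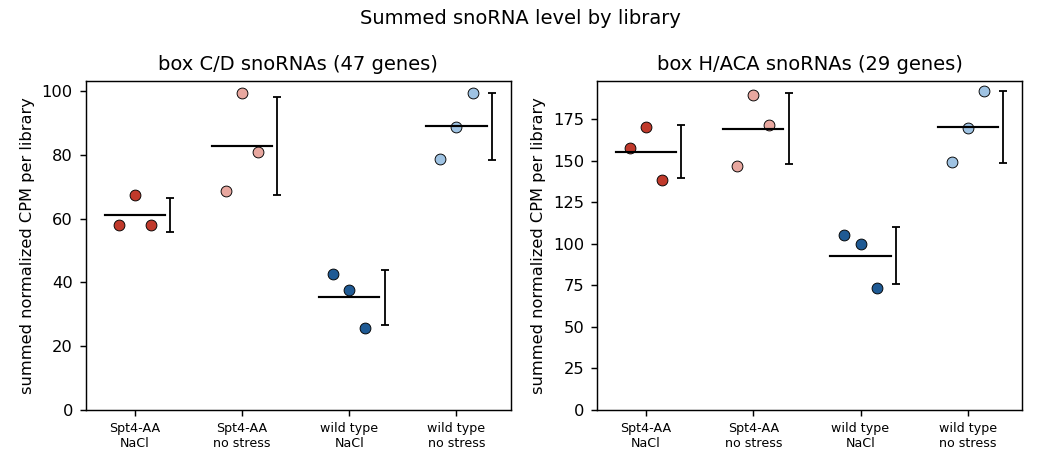
Summed level of the 47 C/D snoRNAs and the 29 H/ACA snoRNAs (normalised CPM, linear axis from 0) in each of the 12 libraries by group; points are libraries, the line is the mean and the bar the SD. In both classes the stressed wild type libraries lie below every other library, C/D sums reaching 25.6 to 42.6 CPM there against 58 to 67.3 CPM in stressed Spt4-AA.

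All comparisons were made in 1 edgeR model of the 4 groups. A gene was called at an adjusted p under 0.05 and at least a 2-fold change, and the difference in response (the log2FC of Spt4-AA upon NaCl minus that of the wild type) at an adjusted p under 0.05. The comparisons share libraries, so their values are given side by side.

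In the wild type, 26 of the 64 noncoding RNAs were lower and 3 higher upon osmostress, where 18.7% of the 6040 genes tested were lower and 18.3% higher. In Spt4-AA, 4 were lower and 10 higher, where 14.9% of all genes were lower and 15.7% higher. Stressed Spt4-AA had 29 higher and 3 lower than the stressed wild type, where 7.75% of all genes were higher and 3.20% lower. The difference in response was positive for 21 and negative for 1, where it was positive for 15.0% and negative for 11.0% of all genes. Without stress 0 of the 64 were called between the strains, where 0.182% of all genes were higher and 0.298% lower. By edgeR 8 of them had an unadjusted p under 0.05 there, 1 higher and 7 lower in Spt4-AA, where 465 of the 6040 genes did. DESeq2 also called 0.

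Most of the calls were snoRNAs, as were 46 of the 64 noncoding RNAs tested. Of the 46 snoRNAs tested, 0 were higher and 23 lower upon osmostress in the wild type, with a median log2FC of -1.22 against 0.03 over all genes. In edgeR 0 had an unadjusted p under 0.05 for a rise and 30 for a fall, where 4374 of the 6040 genes tested had one in either direction. DESeq2 called 0 higher and 31 lower of 76. In Spt4-AA 7 were higher and 2 lower, with a median log2FC of -0.15 against 0.01 over all genes, and that median was 0.01 with library totals alone. With scaling to *ENO1*, which itself had a log2FC of 0.89 in Spt4-AA, 0 were called higher and 22 lower (median -0.97). With a term in the model for the 2 libraries whose numbers stand apart (the term for library numbers) 4 were higher and 6 lower. Between the strains upon osmostress 26 were higher and 0 lower in Spt4-AA, with a median of 1.07 against -0.02 over all genes. There edgeR gave 34 unadjusted p under 0.05 for higher and 0 for lower, where 3337 of the 6040 genes had one in either direction. DESeq2 called 30 higher and 0 lower of 68. The difference in response was positive for 20 and negative for 0, with a median of 1.15 against -0.01 over all genes (21 and 0 in DESeq2). At an unadjusted p under 0.05 in edgeR it was positive for 28 and negative for 0, where 2344 of the 6040 genes passed in either direction. With at least 10 counts required in every library, 26 snoRNAs were tested, of which 14 were lower upon osmostress in the wild type and 15 higher in stressed Spt4-AA than in the stressed wild type.

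The replicates of each group did not always separate. All 23 snoRNAs called lower in the stressed wild type lay below every unstressed wild type library. Of all 46 snoRNAs tested, called or not, 30 did so, where 36.1% of all genes tested did. Of the 26 called between the stressed strains, 23 did not overlap, and snR128, snR43 and snR30 did. Among all 46 tested, 30 were higher in each Spt4-AA library than in any wild type library upon osmostress and 0 were lower, where 25.3% of all genes tested were higher in this way and 25.3% lower. With the term for library numbers, the median log2FC of the 46 was 0.815 between the stressed strains and 0.854 for the difference in response. Beside the 32 noncoding RNAs called between the stressed strains with TMM scaling, 17 were called with library totals alone and 14 with scaling to *ENO1*. Among the RNAs described here, library totals ended that call for snR18, snR31, snR33, snR44, snR46, snR67, *HRA1*, *RPR1* and *RUF20*. Leaving out AA-NaCl 2 left 19 calls.

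**Figure D2:**
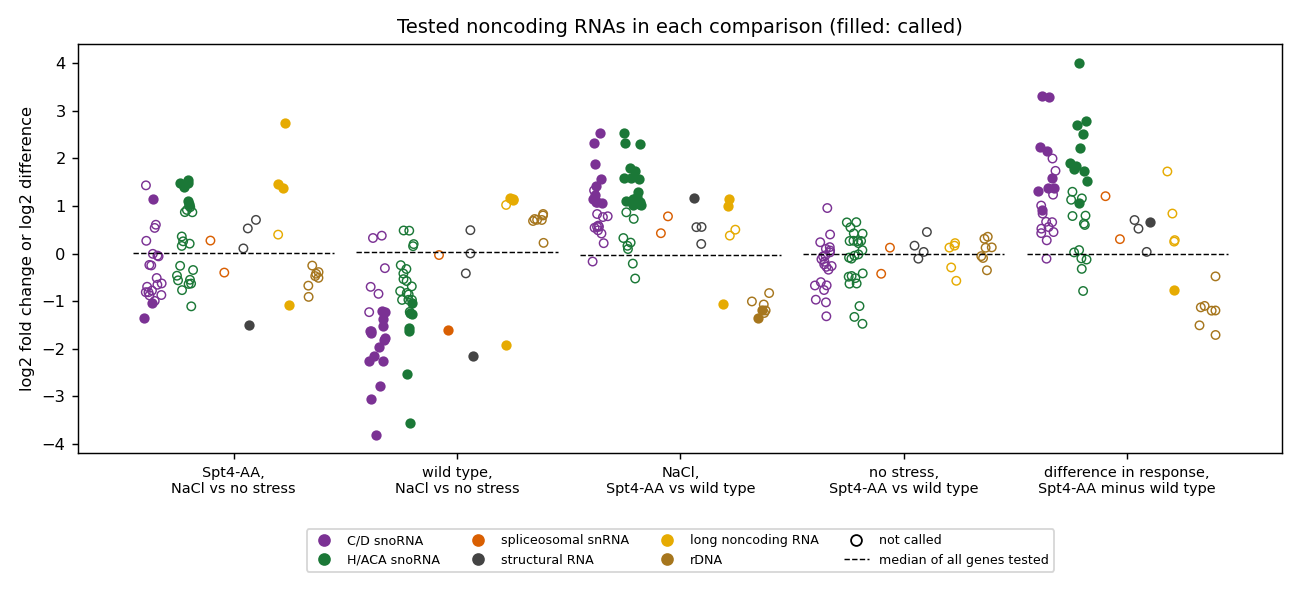
log2FC of each of the 64 tested noncoding RNAs, coloured by class, in the 4 comparisons between groups and the difference in response; filled points were called and the dashed line is the median of all genes tested. Most snoRNAs lie below 0 in the wild type response and above 0 in the comparison of the stressed strains, where 26 of 46 were called higher in Spt4-AA and 0 lower.

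The widest difference in response was that of snR49, an H/ACA guide for pseudouridines of both ribosomal subunits. It had 3.6, 2.91 and 1.25 CPM in Spt4-AA upon osmostress and 0.758, 1.71 and 0.26 CPM without stress. Wild type libraries had 0, 0.387 and 0.913 CPM upon osmostress and 3.11, 1.86 and 2.81 CPM without stress. The stressed wild type libraries lay below all libraries of stressed Spt4-AA and of the unstressed wild type, while the Spt4-AA libraries of both conditions overlapped. Its log2FC was 1.48 in Spt4-AA (SE 0.617, adjusted p = 0.046) and -2.54 in the wild type (SE 0.678, adjusted p = 0.00384), a difference of 4.02 (SE 0.919, adjusted p = 0.00563, edgeR). The strains differed by 2.54 upon osmostress (adjusted p = 0.0072), which was 1.51 with the term for library numbers, and the difference in response was then 2.98. Its rise in Spt4-AA lost the call when any 1 of 8 libraries was left out (adjusted p up to 0.165), which were WT-YPD 1, 2 and 3, WT-NaCl 2, AA-YPD 1 and 3 and AA-NaCl 1 and 2. With the term for library numbers the rise was 0.44.

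snR84, an H/ACA guide for the large subunit, had the lowest adjusted p for its difference in response among the 64. It had 3.88, 3.32 and 4.59 CPM in stressed and 5.43, 7.78 and 7.02 CPM in unstressed Spt4-AA. The wild type had 0.984, 0.644 and 0.73 CPM upon osmostress and 8.73, 8.85 and 10.7 CPM without stress. No 2 of the 4 groups overlapped. It fell by 3.57 on the log2 scale in the wild type (SE 0.241, adjusted p = 4.1e-09), and in Spt4-AA its log2FC was -0.77 (SE 0.2, adjusted p = 0.00349), short of 2-fold. Between the responses the difference was 2.80 (SE 0.317, adjusted p = 3.15e-05), and 3.02 with the term for library numbers.

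snR42, which guides the large subunit as well, moved in opposite directions in the strains. It had 4.43, 5.14 and 3.39 CPM in stressed and 2.65, 1.95 and 2.43 CPM in unstressed Spt4-AA, against 0.799, 0.902 and 0.852 CPM in the stressed and 1.55, 1.97 and 1.71 CPM in the unstressed wild type. Every stressed Spt4-AA library lay above and every stressed wild type library below the 6 unstressed ones. Its log2FC was 0.87 in Spt4-AA (adjusted p = 0.00303, under 2-fold) and -1.04 in the wild type (adjusted p = 0.00319), and stressed Spt4-AA exceeded the stressed wild type by 2.33 (SE 0.248, adjusted p = 5.81e-06). The 2-fold limit was missed for the wild type fall without WT-YPD 2 (-0.94) or WT-NaCl 1 (-0.998).

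3 further H/ACA guides, snR46, snR189 and snR11, were higher in Spt4-AA upon osmostress than without it. snR46 had 2.82, 2.57 and 2.97 CPM in stressed and 1.26, 1.17 and 0.347 CPM in unstressed Spt4-AA, against 0.676, 1.68 and 1.34 CPM in the stressed and 2, 1.66 and 3.61 CPM in the unstressed wild type. snR11 had 3.99, 2.5 and 4.33 CPM in stressed and 0.885, 2.18 and 1.13 CPM in unstressed Spt4-AA, against 0.553, 1.09 and 1.46 CPM in the stressed and 2, 1.5 and 2.08 CPM in the unstressed wild type. The 2 conditions of Spt4-AA did not overlap for either RNA. The log2FC in Spt4-AA was 1.54 for snR46, 1.48 for snR189 and 1.39 for snR11, beside -0.97, -1.23 and -0.83 in the wild type, none of which was called. Responses differed by 2.51 for snR46 (SE 0.578, adjusted p = 0.00578), 2.70 for snR189 (SE 0.761, adjusted p = 0.0182) and 2.22 for snR11 (SE 0.535, adjusted p = 0.00771). snR189 was read on 92 counts in all. Its rise in Spt4-AA was not called without AA-YPD 2, AA-YPD 3 or AA-NaCl 1 (adjusted p up to 0.0876), its strain difference upon osmostress (1.60) not without WT-NaCl 3 or AA-NaCl 1 (up to 0.0925), and its difference in response not without WT-YPD 3 or AA-NaCl 1 (up to 0.0564). The strain difference of snR46 (1.18) was not called without WT-NaCl 1 (adjusted p = 0.0853) or AA-NaCl 1 (adjusted p = 0.0531). It was 1.27 with the term for library numbers. With that term snR189 had a rise of 0.92 in Spt4-AA, a strain difference of 1.04 and a difference in response of 2.14. The difference in response was then 2.60 for snR46 and 2.47 for snR11.

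Among the C/D snoRNAs, 16 of 22 were lower upon osmostress in the wild type with a median log2FC of -1.63, and 10 were higher in stressed Spt4-AA than in the stressed wild type. In Spt4-AA itself 2 were lower and 1 higher (median -0.57), with scaling to *ENO1* 13 and 0 (median -1.40), and with the term for library numbers the median was -0.33. Among the 24 H/ACA snoRNAs, 7 were lower in the wild type (median -0.84) and 16 higher in stressed Spt4-AA than in the stressed wild type (median 1.10). In Spt4-AA, 6 H/ACA snoRNAs were higher and 0 lower (median 0.31). At an unadjusted p under 0.05 in edgeR 10 were higher and 4 lower, where 4303 of the 6040 genes tested passed in either direction. DESeq2 called 8 higher and 0 lower. With scaling to *ENO1* 0 were higher and 9 lower (median -0.45), and with the term for library numbers the median was 0.02. The 2 classes were not tested against each other.

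snR57, a C/D guide for the small subunit and part of the snR57-snR55-snR61 precursor, was the only C/D snoRNA called higher upon osmostress in Spt4-AA. It had 0.941, 0.812 and 1.56 CPM in stressed and 0.253, 0.778 and 0.52 CPM in unstressed Spt4-AA. In the wild type it had 0.246, 0.0644 and 0.243 CPM upon osmostress and 1.03, 0.777 and 0.795 CPM without stress. The conditions did not overlap in either strain. Its responses differed by 3.31 (SE 0.692, adjusted p = 0.00336). The rise of 1.15 in Spt4-AA was not called without AA-YPD 1, AA-YPD 3 or AA-NaCl 3 (adjusted p up to 0.161).

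snR67, a C/D guide for the large subunit from the snR67-snR53 precursor, had 0.388, 0.406 and 0.886 CPM in stressed and 0.569, 1.25 and 1.3 CPM in unstressed Spt4-AA, against 0.184, 0.129 and 0.243 CPM in the stressed and 1.77, 1.6 and 1.47 CPM in the unstressed wild type. Only the stressed wild type libraries lay below 0.3 CPM. It fell by 3.06 on the log2 scale in the wild type (adjusted p = 3.46e-05), and its log2FC in Spt4-AA was -0.81 (adjusted p = 0.0938). Its difference in response of 2.25 (adjusted p = 0.0215) was not called without WT-NaCl 2 (adjusted p = 0.0609) or AA-NaCl 3 (adjusted p = 0.0565), and the strain difference of 1.58 upon osmostress not without WT-NaCl 1, WT-NaCl 2 or AA-NaCl 3 (adjusted p up to 0.142).

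**Figure D3:**
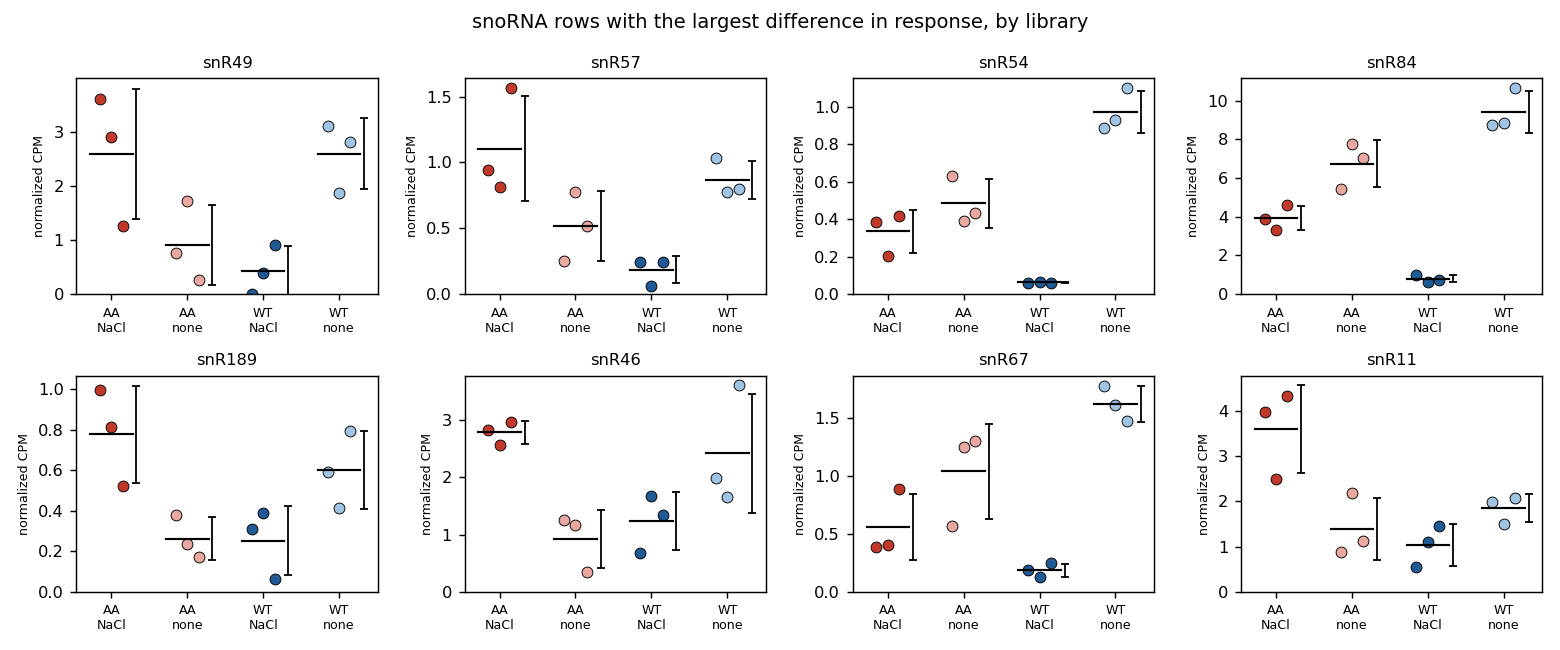
Level of 8 snoRNAs (normalised CPM, linear axes from 0) in each library by group; points are libraries, the line is the mean and the bar the SD. The stressed wild type group is the lowest for snR84 (0.644 to 0.984 CPM), and stressed Spt4-AA stands above unstressed Spt4-AA for snR46 and snR11.

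Among snoRNAs cut from shared precursors, most of those tested fell in the wild type. Of the 9 tested, 7 were lower upon osmostress in the wild type. The whole snR41-snR70-snR51 precursor was tested, and its log2FC was -1.62, -1.53 and -1.63 in that order along the precursor. In Spt4-AA these 3 had -0.24, -0.87 and -0.04, of which none was called. snR76 and snR75, neighbours in the precursor of 7 snoRNAs on chromosome XIII, had -2.27 and -1.78 in the wild type and -0.88 and -1.35 in Spt4-AA, where only snR75 was called. The remaining pair, snR190 and U14 (snR128), had -0.31 and -0.70 in the wild type, neither called. U14, needed for release of the small subunit rRNA, was higher in stressed Spt4-AA than in the stressed wild type by 1.07 (SE 0.381, adjusted p = 0.0327), with 3.65, 5.08 and 2.61 CPM against 2.95, 1.55 and 0.852 CPM, which overlap.

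Most of the intronic snoRNAs tested fell in the wild type together with the mRNAs that carry them. In Spt4-AA most of these mRNAs were called lower as well, but none of the snoRNAs was. The 8 intronic snoRNAs summed to 18.5 ± 3.16 CPM in stressed and 20.6 ± 3.18 CPM in unstressed Spt4-AA, and to 8.54 ± 1.04 CPM (stressed) and 27.1 ± 1.32 CPM (unstressed) in the wild type, each as the mean ± SD of 3 libraries. Of the 6 tested, 5 were lower upon osmostress in the wild type, 0 were called in Spt4-AA, and 4 were higher in stressed Spt4-AA than in the stressed wild type. In Spt4-AA edgeR gave 2 an unadjusted p under 0.05 for a fall, DESeq2 called 0, and with scaling to *ENO1* 4 were called lower. snR38 in *TEF4* and snR59 in *RPL7B* were too low to test.

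snR54 was hardly read in the stressed wild type libraries. It had 0.388, 0.203 and 0.417 CPM in stressed and 0.632, 0.389 and 0.433 CPM in unstressed Spt4-AA. In the wild type it had 0.0615, 0.0644 and 0.0609 CPM upon osmostress, which is 1 count in each library, and 0.887, 0.932 and 1.1 CPM without stress. The stressed wild type libraries lay far below the rest. Over the group the 3 stressed wild type counts stood against 48 unstressed ones, a normalised ratio of 0.0637 (95% counting interval 0.0127 to 0.198), and 18 counts in stressed Spt4-AA against those 3 gave a ratio of 5.56 (1.62 to 29.5). By edgeR the wild type fall had an adjusted p = 7.71e-06, the strain difference upon osmostress one of 0.00622 and the difference in response one of 0.0036. The mRNA of its host *IMD4*, an enzyme of guanine nucleotide synthesis, had a log2FC of -1.72 in Spt4-AA and -3.18 in the wild type.

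snR24 (U24), in the intron of the ribosomal protein gene *ASC1*, had 1.16, 1.01 and 0.886 CPM in stressed and 1.33, 1.63 and 1.82 CPM in unstressed Spt4-AA, against 0.184, 0.387 and 0.243 CPM in the stressed and 2.37, 1.6 and 1.77 CPM in the unstressed wild type. It fell by 2.78 on the log2 scale in the wild type (adjusted p = 4.57e-06), beside -0.63 in Spt4-AA (adjusted p = 0.0671), and *ASC1* mRNA had -2.67 and -1.21. For snR24 the responses differed by 2.15 (SE 0.467, adjusted p = 0.00418). snR44, an H/ACA guide in the intron of *RPS22B*, had a log2FC of -1.56 in the wild type and 0.21 in Spt4-AA, with a difference of 1.77 (SE 0.254, adjusted p = 0.000226), while *RPS22B* had -1.70 and -0.47. It exceeded the stressed wild type by 1.14 in stressed Spt4-AA, which fell just short of 2-fold without WT-NaCl 1 (0.975) or AA-NaCl 3 (0.986).

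For the other intronic snoRNAs the difference in response did not pass. snR18 in *EFB1* had a log2FC of -1.82 in the wild type and -0.81 in Spt4-AA, and snR39 in *RPL7A* -2.25 and -0.25, with differences in response of 1.01 (adjusted p = 0.14) and 2.00 (adjusted p = 0.0512). *EFB1* mRNA had -2.215 in the wild type and -1.308 in Spt4-AA, and *RPL7A* mRNA -2.77 and -1.54, all called lower. The strain difference of snR18 upon osmostress (1.07, adjusted p = 0.0292) was not called without WT-NaCl 2, WT-NaCl 3 or AA-NaCl 2 (adjusted p up to 0.145), and was 0.58 with the term for library numbers. snR191 was not called in any comparison, with -0.79 in the wild type and -1.11 in Spt4-AA. The mRNA of its host *NOG2*, a GTPase of large subunit assembly, fell by 6.28 on the log2 scale in the wild type and by 3.20 in Spt4-AA.

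**Figure D4:**
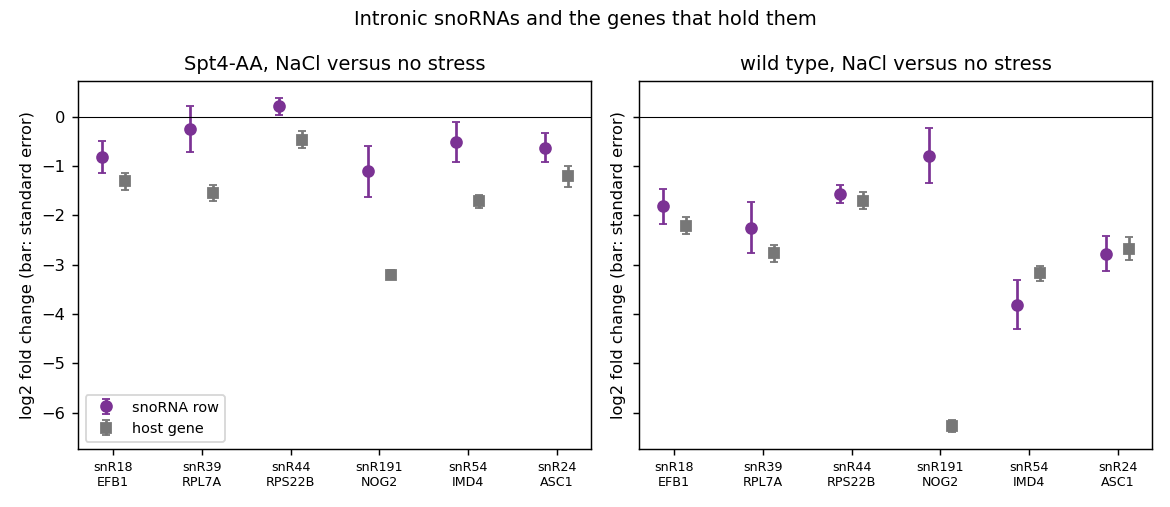
log2FC upon osmostress of the 6 tested intronic snoRNAs and of their host mRNAs, in Spt4-AA and in the wild type; points are edgeR estimates and bars the SE. In the wild type 5 of the 6 snoRNAs lie below -1 beside hosts at -1.70 to -3.18, while snR191 lies at -0.79 beside *NOG2* at -6.28. In Spt4-AA the snoRNAs lie at -1.11 to 0.21, none called, beside hosts at -0.47 to -3.20.

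The most abundant snoRNAs by CPM were snR86, snR33, snR31, snR82 and snR44. snR33, a guide for the large subunit, had 16.9, 16.2 and 12.9 CPM in stressed and 18.5, 24.8 and 24.7 CPM in unstressed Spt4-AA, against 8.24, 8.25 and 5.72 CPM in the stressed and 17.6, 25.4 and 25.4 CPM in the unstressed wild type. Its log2FC was -0.56 in Spt4-AA and -1.63 in the wild type (adjusted p = 3.06e-06), a difference of 1.06 (SE 0.271, adjusted p = 0.0106), which was 0.82 with the term for library numbers. snR31, a guide for the small subunit, was called in the wild type (-1.26) and between the stressed strains (1.01), and the strain difference was 0.41 with that term. Both strain differences upon osmostress dropped under 2-fold without WT-NaCl 3 (0.89 for snR33 and 0.78 for snR31) or AA-NaCl 1 (0.98 and 0.96), and that of snR31 also without AA-NaCl 2 (0.81).

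snR86, an H/ACA guide for the large subunit and the most read snoRNA, had close estimates in both strains. It had 23.2, 27.3 and 24.3 CPM in stressed and 27.3, 44 and 38.5 CPM in unstressed Spt4-AA, against 25.4, 24.5 and 20.1 CPM in the stressed and 30.8, 36.5 and 36.8 CPM in the unstressed wild type. The log2FC was -0.55 in Spt4-AA (SE 0.16) and -0.58 in the wild type (SE 0.16), both short of 2-fold, and the difference in response was 0.03 (SE 0.225, adjusted p = 0.948). snR82 had -0.34 and -0.42 and was not called in any comparison. The U3 genes, named after their values were seen, differed in their calls: snR17b had -0.995 in Spt4-AA and -1.66 in the wild type, where it was called, while snR17a had 0.27 and 0.38. Both encode U3, and 93.3% of the 50-base stretches of snR17a and 93% of those of snR17b are unique in the genome.

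Some RNAs, chosen after their values were seen, were high in the 2 stressed Spt4-AA libraries with separate numbers. snR9, a guide for the large subunit, had 9.74 and 9.4 CPM in replicates 1 and 2 of stressed Spt4-AA and 3.6 CPM in replicate 3, against 3.2, 2.32 and 2.01 CPM in the stressed wild type. snR30, an H/ACA snoRNA needed for cutting the rRNA precursor, had 14.1, 18.9 and 6.41 CPM against 6.09, 7.92 and 4.44 CPM. Both were called higher in stressed Spt4-AA (1.58 and 1.09), and the groups of snR30 overlapped. The snRNA U6 (snR6), too low to test, had 1.11, 1.01 and 0.104 CPM in stressed Spt4-AA and at most 0.0609 CPM in the stressed wild type. Across the 46 tested snoRNAs replicate 3 was the lowest of the 3 stressed Spt4-AA libraries for 23, replicate 2 for 14 and replicate 1 for 9. The other groups were as uneven, with AA-YPD 1 the lowest of its group for 27, WT-NaCl 3 for 23 and WT-YPD 1 for 23. The part of the library numbers in these differences was not tested, since the term in the model leaves only AA-NaCl 3 for stressed Spt4-AA.

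Among the spliceosomal snRNAs, only U1 (snR19) and U2 (*LSR1*) were tested. U2, which pairs with the branch point of introns, had 4.65, 5.28 and 2.24 CPM in stressed and 4.61, 6.3 and 5.03 CPM in unstressed Spt4-AA, against 2.34, 3.35 and 1.34 CPM in the stressed and 6.43, 6.89 and 8.02 CPM in the unstressed wild type. It fell by 1.61 on the log2 scale in the wild type (SE 0.324, adjusted p = 0.00044), with -0.40 in Spt4-AA (adjusted p = 0.272), and the difference of 1.21 did not pass (adjusted p = 0.0632). U1, which pairs with the 5′ splice site, was not called, with a log2FC of 0.27 in Spt4-AA and -0.03 in the wild type. U4 (snR14) had 6 counts over the 12 libraries, the long form of U5 (snR7-L) 9 and U6 47, and no counts fell on the short form snR7-S, which lies inside snR7-L.

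*TLC1*, the RNA template of telomerase, was the most read noncoding RNA. It had 40.5, 48.6 and 47.7 CPM in stressed and 106, 139 and 140 CPM in unstressed Spt4-AA, against 32.5, 34.1 and 26.4 CPM in the stressed and 118, 144 and 153 CPM in the unstressed wild type. Stressed and unstressed libraries were far apart in both strains, and the stressed Spt4-AA libraries lay above the stressed wild type ones. It fell by 1.49 on the log2 scale in Spt4-AA (SE 0.139, adjusted p = 2.57e-07) and by 2.16 in the wild type (SE 0.143, adjusted p = 3.35e-09). Its responses differed by 0.66 (SE 0.195, adjusted p = 0.0225), with adjusted p of 0.0523 to 0.0651 without WT-YPD 2, WT-YPD 3, WT-NaCl 3 or AA-YPD 1, 0.106 with library totals alone and 0.381 with scaling to *ENO1*. With the term for library numbers the difference was 0.73.

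The other RNAs of RNA-protein machines were called in at most 1 comparison. *RPR1*, the RNA of nuclear RNase P that trims tRNA precursors, had 5.92, 9.07 and 3.44 CPM in stressed and 3.48, 3.81 and 3.9 CPM in unstressed Spt4-AA, against 2.27, 3.09 and 2.8 CPM in the stressed and 3.18, 2.85 and 2.14 CPM in the unstressed wild type. It was called higher in stressed Spt4-AA than in the stressed wild type (1.16, SE 0.296, adjusted p = 0.00563), with 0.78 without AA-NaCl 2 and 0.34 with the term for library numbers. *SCR1*, the RNA of the signal recognition particle, and *NME1*, the RNA of RNase MRP, were not called. *SCR1* had 7.12 to 24.4 CPM within the stressed wild type alone. No counts fell on the mitochondrial *RPM1*.

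*ICR1*, a long noncoding RNA transcribed across the promoter region of the flocculin gene *FLO11*, responded in the wild type. It had 15.8, 15 and 25.8 CPM in stressed and 12.6, 15.8 and 14.7 CPM in unstressed Spt4-AA, against 42.4, 39.6 and 35.7 CPM in the stressed and 16.6, 19.6 and 16.5 CPM in the unstressed wild type. Each stressed wild type library lay above all 9 others. The log2FC was 0.40 in Spt4-AA (SE 0.187, adjusted p = 0.0707) and 1.16 in the wild type (SE 0.181, adjusted p = 4.34e-05), and stressed Spt4-AA was lower than the stressed wild type (log2FC -1.05, SE 0.18, adjusted p = 0.000324). That strain difference dropped under 2-fold without WT-NaCl 1 (-0.99), AA-NaCl 1 (-0.93) or AA-NaCl 2 (-0.91), and was -0.60 with the term for library numbers. The wild type rise was 0.64 with scaling to *ENO1* (adjusted p = 0.0827).

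The difference in response of *ICR1* was -0.76 (SE 0.259, adjusted p = 0.0443), the only negative one among the noncoding RNAs called. It was called in 3 of the 12 fits with 1 library left out, and not without WT-YPD 1, 2 or 3, WT-NaCl 1 or 2, AA-YPD 2 or 3 or AA-NaCl 1 or 2 (adjusted p up to 0.108). With the term for library numbers it was -0.31. *FLO11* mRNA had a log2FC of 0.31 in Spt4-AA (adjusted p = 0.11, edgeR) and was not called there. It had 0.88 in the wild type (adjusted p = 0.000215) and -0.53 between the stressed strains (adjusted p = 0.0152), both short of 2-fold. *PWR1*, which lies on the opposite strand inside *ICR1* and promotes *FLO11* transcription, had 15 counts over the 12 libraries and was not tested.

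*HRA1*, an RNA linked to small subunit rRNA processing, had 1.61, 1.08 and 0.938 CPM in stressed and 0.253, 0.156 and 0.0867 CPM in unstressed Spt4-AA, against 0.861, 0.451 and 0.304 CPM in the stressed and 0.148, 0.466 and 0.122 CPM in the unstressed wild type. It was called higher upon osmostress in Spt4-AA (log2FC 2.75, SE 0.577, adjusted p = 0.000701), while the wild type log2FC of 1.02 had an adjusted p = 0.129. Its difference in response of 1.73 did not pass (adjusted p = 0.163). The strain difference upon osmostress (1.16, adjusted p = 0.0446) was called in 5 of the 12 fits with 1 library left out. It was not called without WT-YPD 1, WT-NaCl 2 or 3, AA-YPD 2 or 3 or AA-NaCl 1 or 2 (adjusted p up to 0.175), and it was 0.79 with the term for library numbers. *HRA1* overlaps *DRS2* on the opposite strand, which had 407 to 1281 counts per library beside 1 to 29 for *HRA1*, and the strand setting of the counting was not given in the sources used here.

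*RUF20*, an essential noncoding RNA at the end of *SEC4*, fell in both strains. It had 1.22, 1.9 and 0.991 CPM in stressed and 3.54, 2.8 and 2.17 CPM in unstressed Spt4-AA, against 0.676, 0.773 and 0.548 CPM in the stressed and 2.74, 2.48 and 2.45 CPM in the unstressed wild type. The log2FC was -1.09 in Spt4-AA (adjusted p = 0.00309) and -1.93 in the wild type (adjusted p = 5.5e-05), with a difference that did not pass (adjusted p = 0.156). The fall in Spt4-AA was under 2-fold without AA-YPD 1 (-0.89) or AA-NaCl 3 (-0.90), and with library totals alone (-0.96). The strain difference of 1.01 upon osmostress was not called without WT-NaCl 3 (adjusted p = 0.0842) or AA-NaCl 2 (adjusted p = 0.115), and was 0.57 with the term for library numbers. *RUF20* overlaps the 3′ untranslated region of *SEC4* by 140 bases on the opposite strand, and the strand setting of the counting was not given in the sources used here.

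*RUF5-1* and *RUF5-2*, copies of 1 RNA of unknown function, were higher upon osmostress in both strains, with log2FC of 1.45 and 1.37 in Spt4-AA and 1.17 and 1.12 in the wild type. With scaling to *ENO1* neither was called in either strain (0.62 and 0.55 in Spt4-AA, 0.64 and 0.60 in the wild type), and that of *RUF5-1* in the wild type fell short of 2-fold without WT-YPD 2 (0.985) or WT-NaCl 3 (0.95). The copies cannot be told apart, since 0% of their 50-base stretches are unique. The study's methods say that only uniquely mapping reads were counted, yet these genes hold 687 and 750 counts, so how their reads were assigned is not known. Each also holds the whole of a metallothionein gene, *CUP1-1* with 306 to 1363 or *CUP1-2* with 327 to 1395 counts per library, beside 22 to 116 counts for *RUF5-1* and 24 to 124 for *RUF5-2*. *RUF21*, *RUF22*, *RUF23* and *RNA170* had 35, 1, 72 and 28 counts over the 12 libraries and were not tested.

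**Figure D5:**
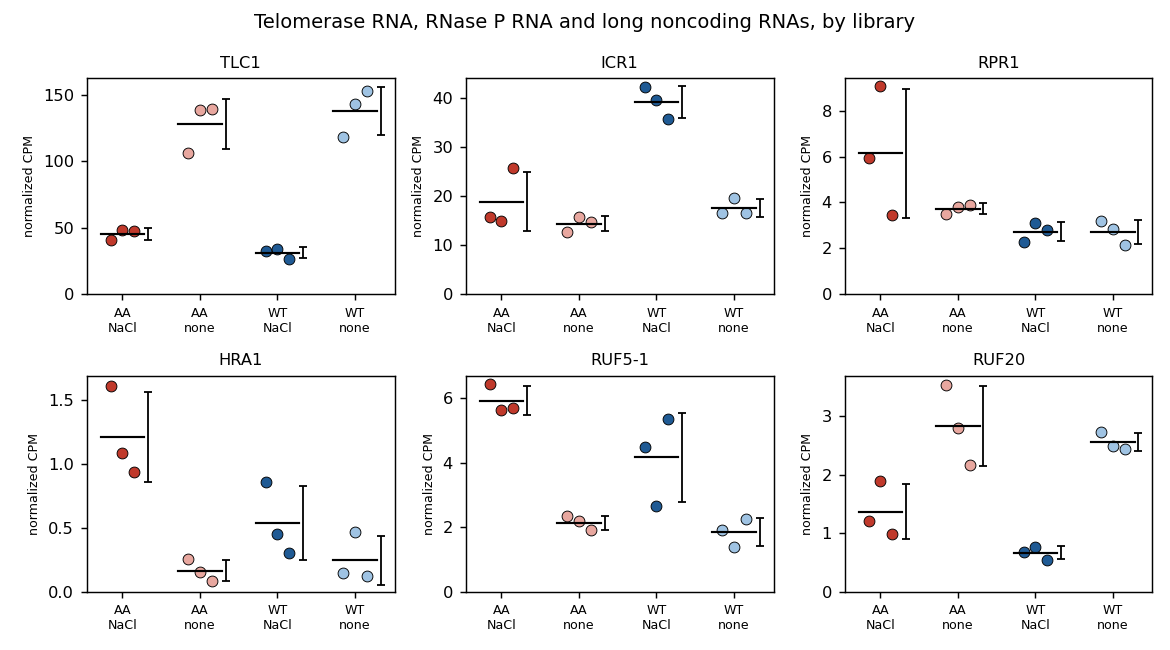
Level of *TLC1*, *ICR1*, *RPR1*, *HRA1*, *RUF5-1* and *RUF20* (normalised CPM, linear axes from 0) in each library by group; points are libraries, the line is the mean and the bar the SD. *ICR1* stands at 35.7 to 42.4 CPM in the stressed wild type and at no more than 25.8 CPM elsewhere.

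The rDNA genes read were almost wholly those of 5S rRNA, transcribed by RNA polymerase III. The 8 genes of the large rRNA precursor and its products, which lie inside each other, had no counts. The 6 genes of 5S rRNA share most of their sequence and had between 1011 and 1290 counts over the 12 libraries. *RDN5-2* to *RDN5-5* have 0% unique 50-base stretches, so how their counts arose from uniquely mapping reads is not known either. The lowest of them, *RDN5-4*, had 2.1, 3.25 and 4.85 CPM in stressed and 2.15, 8.95 and 3.64 CPM in unstressed Spt4-AA, against 14, 5.54 and 4.81 CPM in the stressed and 3.62, 3.68 and 7.83 CPM in the unstressed wild type. Replicate 1 of the stressed wild type stood above the rest, as it did for the highest, *RDN5-1*, with 17 CPM. *RDN5-2* and *RDN5-5* were called lower in stressed Spt4-AA than in the stressed wild type (log2FC -1.36 and -1.19, adjusted p = 0.0446 and 0.0389). Without WT-NaCl 1, 28 noncoding RNAs were called higher between the stressed strains and 0 lower.

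The proteins that build and process snoRNAs were followed on a list of 23 genes, all tested. Upon osmostress 16 were called lower in Spt4-AA (14.9% of all genes) and 15 in the wild type (18.7%), with median log2FC of -1.60 and -2.34 against 0.01 and 0.03 over all genes. Upon osmostress 8 were called higher in Spt4-AA than in the wild type (7.75% of all genes), with a median of 0.58 against -0.02 over all genes. The core C/D methyltransferase *NOP1* had 191 ± 26.6 CPM in stressed Spt4-AA and 68.5 ± 3.08 CPM in the stressed wild type (SD, n = 3 each), a difference of 1.48 (SE 0.12, adjusted p = 4.6e-07). Its partner *NOP58* differed by 2.06, the pseudouridine synthase *CBF5* of the H/ACA particles by 1.36, and *MTR4*, a helicase that feeds RNAs to the exosome, by 1.35. The difference in response was positive for 11 (15.0% of all genes) and negative for 1 (11.0%), *NAB3* (-0.69, adjusted p = 0.0101), which ends transcription of snoRNA genes.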

How the data were processed

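Strand-marked poly(A) RNA-seq libraries of 50-base single reads were made from 12 cultures, 3 in each of 4 groups. Per the labels and the study's methods, the authors mapped reads with TopHat2 2.1.0 to Ensembl R64-1-1 (sacCer3), counted unique reads per gene with featureCounts 1.5.1 and tested them with DESeq2 1.14.1. The counts were used as deposited by the authors, as whole numbers without normalization, and 0 columns belonged to other samples. The strand setting of the counting was not given in the sources used here, and genes with no unique 50-base stretch nonetheless hold counts.

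edgeR 4.0.16 (R 4.3.3, limma 3.58.1) was used with filterByExpr, TMM and a robust quasi-likelihood fit with 1 coefficient per group, and p-values were adjusted by Benjamini-Hochberg over 6040 genes. Calls needed an adjusted p under 0.05 and, except for the difference in response, a log2FC of at least 1 in size. CPM use TMM-scaled library sizes. Totals were 12903162 to 21909524 counts. P-values measure the spread between replicate cultures, and the interval of a ratio covers counting error only. The code was tested on simulated counts.

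Alternatives were DESeq2 1.42.0, RLE factors, library totals, scaling to *ENO1*, other filters on low counts, the groups compared alone, a replicate block, a term for library numbers, a test against 2-fold, no rDNA genes and each library left out. The members and lists were chosen with earlier results of these data known. Genes named in full were the 8 intronic snoRNAs, the 8 with the largest change among those called in each comparison, the 5 most abundant snoRNAs every other RNA outside the rDNA, and the lowest and highest 5S genes; further names were chosen after their values were seen. Gene positions, sequences and notes are from RefSeq assembly R64.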

Additional observations from a re-analysis of the deposited data

Results flagged for a closer look

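Of the 22 noncoding RNAs whose response to osmostress differed between the strains by edgeR's test of the difference itself (adjusted p under 0.05), the 16 that the naming rule covers are given here. On the log2 scale, as the response of Spt4-AA minus that of the wild type, the difference among H/ACA snoRNAs was 4.02 for snR49, 2.80 for snR84, 2.70 for snR189, 2.51 for snR46, 2.22 for snR11, 1.91 for snR42, 1.84 for snR35, 1.77 for snR44 and 1.06 for snR33. Among C/D snoRNAs it was 3.31 for snR57, 3.30 for snR54, 2.25 for snR67, 2.15 for snR24 and 1.39 for snR76. Outside the snoRNAs it was 0.66 for *TLC1* and -0.76 for *ICR1*. That of snR35 was called in 3 of the 12 fits with 1 library left out, which were those without WT-YPD 2, WT-NaCl 3 or AA-NaCl 3. In the fits that lost the call its adjusted p was up to 0.128. The difference of snR76 was not called without WT-YPD 2, WT-NaCl 2, AA-YPD 1 or AA-NaCl 1 (adjusted p up to 0.0586). With the term for library numbers the difference was 1.65 for snR35 and 0.80 for snR76.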

How the results depend on the processing

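No named call turned its direction. Beside the 14 noncoding RNAs called in the Spt4-AA response (10 higher, 4 lower), scaling to *ENO1* gave 29 (1 and 28), at least 10 counts in every library 7 (4 and 3), and a test against 2-fold 2. Beside the 29 in the wild type response (3 and 26), 10 counts gave 19, the 2-fold test 19 and *ENO1* 37 (0 and 37). Beside the 32 between the strains upon osmostress (29 and 3), library totals gave 17 (13 and 4), *ENO1* 14 (11 and 3), 10 counts 19 and the 2-fold test 3. Beside the 22 differences in response (21 and 1), *ENO1* gave 6 and 10 counts 12. Library totals moved the median of all genes to 0.16, 0.38, -0.22 and -0.20 in these 4 comparisons, and *ENO1* to -0.81, -0.49, -0.33 and -0.31. With TMM scaling, *ENO1* itself had a log2FC of 0.89 upon osmostress in Spt4-AA and 0.53 in the wild type. It was 0.37 between the stressed strains, and 0.37 for the difference in response. In the Spt4-AA response library totals gave 13 higher and 2 lower. With the term for library numbers stressed Spt4-AA rests on AA-NaCl 3 alone, so counts of calls are not given for it. The cause of these shifts was not tested. Leaving out 1 library gave 11 (without AA-NaCl 1) to 22 (without AA-NaCl 3), 29 to 35, 19 (without AA-NaCl 2) to 36, and 15 (without WT-YPD 3 or AA-NaCl 1) to 33 (without AA-NaCl 3).

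Without stress every setting gave 0 calls between the strains. Same-numbered samples correlated at r = -0.44 to 0.42, with 9 of 18 pairs over 0.1, so the numbers were not taken to pair the samples. The replicate block gave 14, 31, 31 and 25 calls in the same order and changed 1 of 65 named calls. DESeq2 changed 3, and no filter on low counts gave 21 calls in the Spt4-AA response.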
